A study of Mus musculus with 12 samples.

Results

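The libraries described here are 8 RNA libraries of mouse adipose tissue, 4 with at least 48 counts of Foxj1 and 4 with at most 2, Foxj1 being the transcription factor that switches on the genes of motile cilia. They come from 12 libraries in 3 groups of 4, all from mice of mixed C57BL/6 x 129/SvJ background killed at 6 months of age. Wild-type (WT) mice and untreated mice labelled Bbs2-/- had no drug, and treated mice labelled Bbs2-/- ate feed with 0.033% by weight of Genz-667161, an inhibitor of glucosylceramide synthase (GCSi), from 2 months of age. Bbs2 is part of the BBSome, which carries membrane proteins out of cilia. Only WT and treated libraries were split, and the sides were chosen by the measured Foxj1 count, at a minimum of 40: WT 1, WT 4, treated 1 and treated 3 were above it and are called Foxj1-high, while WT 2, WT 3, treated 2 and treated 4 were below it and are called Foxj1-low. Each side thus holds 2 libraries of each group, and neither genotype nor drug separates the sides. The lowest Foxj1-high library was WT 1 with 48 Foxj1 counts and the highest Foxj1-low library was WT 2 with 2. The 4 untreated libraries were left out of the split, and they had 0 to 2 Foxj1 counts.

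Motile cilia are the beating hairs of multiciliated cells, which line the airways, the brain ventricles, the oviduct and, in males, the efferent ductules between testis and epididymis. Their core is a ring of doublet microtubules around a central pair. Outer and inner dynein arms on the doublets are the motors, and radial spokes and the nexin-dynein regulatory complex coordinate them. Many other cells have a single primary cilium without dynein arms, which is built by intraflagellar transport and served by the BBSome. Foxj1 and factors of the RFX family together drive the motile cilia genes.

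The labels give neither the fat depot nor the sex. Levels are given in CPM, counts relative to the TMM-scaled library size, which are not corrected for gene length. The Y-linked gene Ddx3y was at 73.0 to 114.8 CPM in the 12 libraries. Bbs2 was at 12.1 to 12.7 CPM in WT libraries and at 53.6 to 70.5 CPM in the 8 libraries labelled Bbs2-/-, so its RNA separated the labels but was higher, not lower, under the knockout label. The 8 split libraries held 16317865 to 20224200 estimated counts, and 15602 to 15800 genes had at least 10 counts in the Foxj1-high libraries against 14694 to 15133 in the Foxj1-low ones. The 13 protein genes of the mitochondrial genome took 5.12 to 6.12% of counts in the Foxj1-high and 6.63 to 9.21% in the Foxj1-low libraries, again without overlap. Since sample numbers in the labels are not tied to individual mice, p-values reflect only how much these libraries varied, which may be technical. The library names of WT 2 and WT 3 are of another type than the other 10, which carry the word merged. Within WT this name type and the Foxj1 split cannot be told apart, but in the treated group all 4 names are of 1 type.

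Foxj1 (ENSMUSG00000034227.7; mm10 chromosome 11, 116330704 to 116335399, minus strand) was at 2.61 CPM in WT 1, 9.52 in WT 4, 7.96 in treated 1 and 7.40 in treated 3. The Foxj1-low values were 0.13, 0, 0.05 and 0 CPM (WT 2, WT 3, treated 2, treated 4), and the summed counts were 154-fold apart (95% counting interval 52.3 to 748). These values chose the sides, so they and all other differences between the sides are given as a description. Cfap65 (ENSMUSG00000047021.14; chromosome 1, 74902071 to 74935599, minus strand), a central pair protein given with the rule as a marker, was at 5.76, 19.9, 17.1 and 20.9 CPM in the Foxj1-high libraries, and no read was counted in any Foxj1-low library. Against a limit of 3 counts for the 4 Foxj1-low libraries together, Cfap65 was at least 358-fold higher. The third marker, Crisp1 (ENSMUSG00000025431.4; chromosome 17, 40293758 to 40319207, minus strand), a secreted protein of the epididymis, behaved otherwise: it was at 1080.7 CPM in WT 1 and 0.29 CPM in WT 4, without a read in treated 1, treated 3 and all Foxj1-low libraries. Foxj1 itself set the sides and is no check of the name "ciliated epithelium". Of the other markers, Cfap65 had reads in all 4 Foxj1-high libraries, whereas Crisp1 was abundant in WT 1 and does not mark the others. In bulk tissue, fewer cells of a type and less RNA per cell cannot be told apart.

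**Figure D1:**
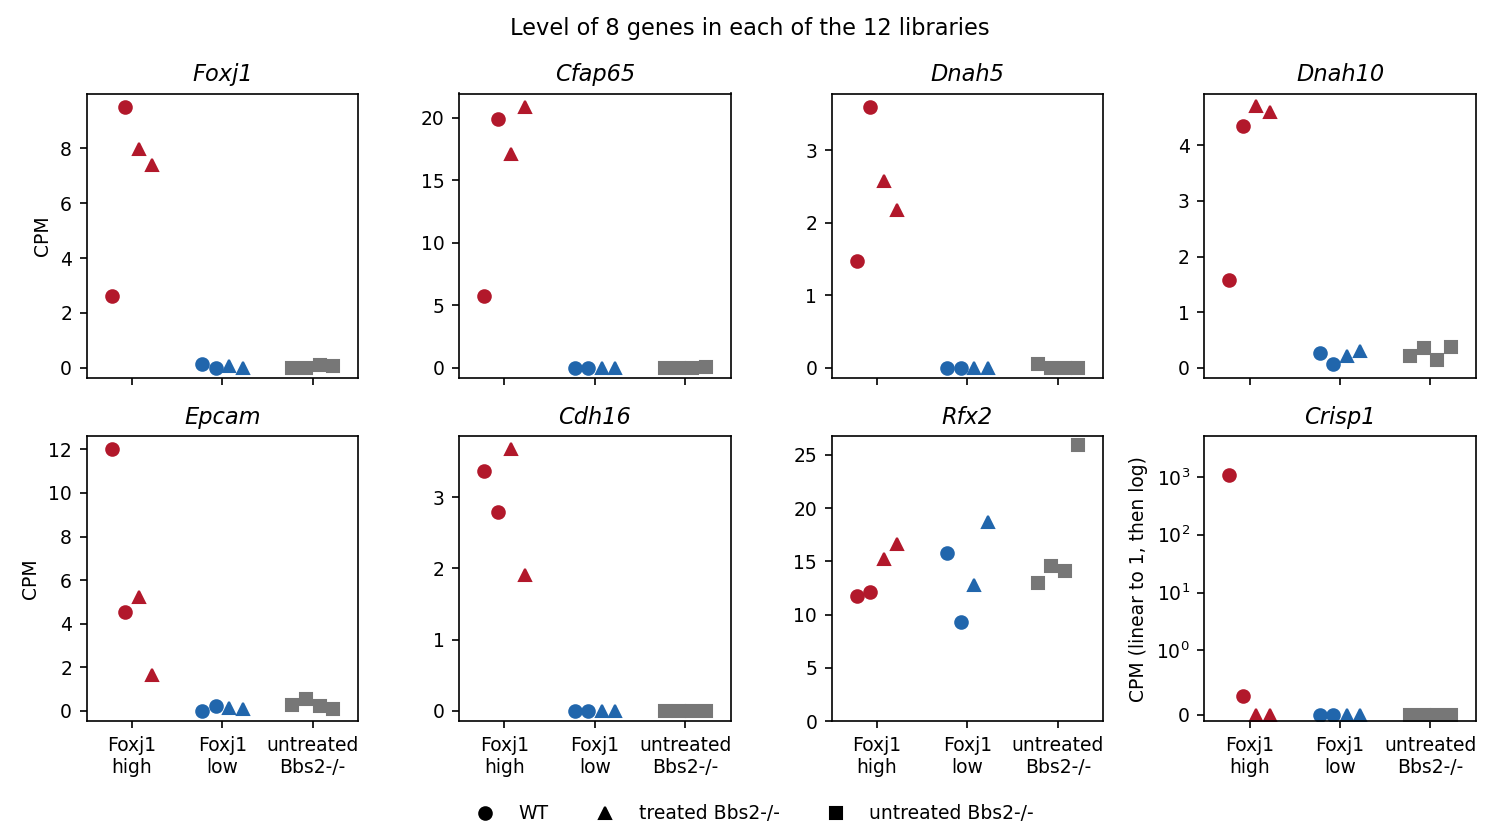
Each point is the level of a gene in 1 library, in CPM, with WT libraries as circles, treated as triangles and untreated as squares, and the sides on the horizontal axis; the Crisp1 axis is linear to 1 and logarithmic above. Foxj1, Cfap65, Dnah5, Dnah10, Epcam and Cdh16 are higher in each Foxj1-high library than in any other, Rfx2 overlaps, and Crisp1 stands out in WT 1 at 1080.7 CPM.

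There are 6 lists for the motile cilium. Of their 102 genes, 58 were higher in all 4 Foxj1-high libraries than in any Foxj1-low library, 2 were lower and 42 overlapped. Among all 27625 genes with a count, 2.77% were higher without overlap, and among the 15312 tested genes 2.55% were higher and 1.41% lower. Of the 102, 70 passed the filter on low counts, and 19 had no read in any Foxj1-low library. In edgeR, with the group as a covariate, 73 of 15312 tested genes (0.477%) differed between the sides at an adjusted p under 0.05, all 73 higher in the Foxj1-high libraries, and 17 of the 73 are in the motile cilia lists. The split used these libraries, so nothing is read from these counts beyond which genes they are.

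The regulators upstream of the cilium divided. Gmnc, Myb and Trp73, which with Foxj1 act in the commitment to multiciliation, were higher in all 4 Foxj1-high libraries. Trp73 was at 0.16 to 1.0 CPM there and had no read in the Foxj1-low ones, and Gmnc was at 0.49 to 0.93 CPM against 0 to 0.10. Mcidas, the coactivator that starts centriole amplification, had 3 counts in WT 4 and none in the other 7 libraries, and Cdc20b had none in any. The RFX factors showed no such split. Rfx2 was at 11.7 to 16.6 CPM in the Foxj1-high and 9.34 to 18.7 CPM in the Foxj1-low libraries, and Rfx3 at 2.79 to 5.28 against 2.83 to 4.31 CPM. E2f5, another cofactor of multiciliation, overlapped too, with a log2 difference of -0.06 ± 0.18 (SE).

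Most genes of both dynein arms were higher in the Foxj1-high libraries. Dnah5, the outer arm heavy chain most often mutated in primary ciliary dyskinesia, was at 1.47, 3.60, 2.58 and 2.17 CPM in WT 1, WT 4, treated 1 and treated 3, with no read in the Foxj1-low libraries, so it was at least 54.7-fold higher. Dnah11, the proximal outer arm chain, was at 1.79, 6.62, 5.73 and 4.81 CPM against 0.07, 0, 0.16 and 0. In total 8 of 12 outer arm genes were higher without overlap. Dnal1, a dynein light chain, was one of the 4 that were not, at 11.1 to 15.6 against 9.62 to 15.0 CPM. Of the inner arm genes, 7 of 12 were higher without overlap. Dnah10 was at 1.58, 4.35, 4.70 and 4.60 CPM against 0.27, 0.07, 0.22 and 0.31 CPM, a log2 difference of 4.08 ± 0.49. Wdr63, an intermediate chain, had a single count over the 4 Foxj1-low libraries together, and its summed counts were 196-fold higher in the Foxj1-high libraries (95% counting interval 34.8 to 7780). Dnah3 overlapped, at 1.96 to 4.33 against 1.09 to 3.10 CPM. The cytoplasmic factors that assemble the arms before they enter the cilium split least of these lists: 3 of 13 were higher without overlap (Dnaaf1, Lrrc6 and Zmynd10), and Dnaaf5 was at 13.5 to 18.9 against 14.6 to 16.5 CPM.

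The radial spoke, central pair and regulatory complex list had 22 of 29 genes higher without overlap. Cfap44, which tethers inner arms to the doublet, was at 3.21, 3.89, 4.08 and 5.07 CPM against 0.27, 0.13, 0.33 and 0.21 CPM in WT 2, WT 3, treated 2 and treated 4, a log2 difference of 4.07 ± 0.34. Drc7 and Spag16 had no read in the Foxj1-low libraries. Hydin, a large central pair protein, was at 2.28 to 3.95 against 0 to 1.58 CPM. Rsph3a and Rsph3b, near-identical copies of a radial spoke gene, went the other way: Rsph3b was at 23.1 to 23.9 CPM in the Foxj1-high and 25.5 to 39.3 CPM in the Foxj1-low libraries. As the pair shares sequence, how reads were divided between them is uncertain. Of the doublet microtubule genes, 14 of 24 were higher without overlap. Cfap52 was at 1.36, 1.04, 1.5 and 1.32 CPM and Ak7, an adenylate kinase of the axoneme, at 1.20, 6.96, 3.67 and 2.75 CPM, with 0 and 1 counts in the Foxj1-low libraries together. Tppp3 and Cfap20 overlapped, with log2 differences of -0.08 ± 0.18 and -0.05 ± 0.13. Both had reads in all 12 libraries, as did Dnal1, Dnaaf5, Rfx2, E2f5 and Gas8. Cfap43 also had reads in all 12 but was higher without overlap, at 9.3 to 16.8 against 5.33 to 8.12 CPM.

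The primary cilium genes mostly overlapped. Of 28 genes of intraflagellar transport and the BBSome, 2 were higher without overlap, Ift74 and Arl6, and 26 overlapped. Ift74 was at 9.03 to 10.8 against 6.42 to 7.42 CPM and Arl6 at 11.8 to 14.4 against 8.26 to 11.7 CPM. The median log2 difference of the 28 was 0.04, against 1.60 for the 70 tested motile cilia genes and 0.00 for all tested genes. These medians are not a like comparison. Foxj1, which set the sides, is among the 70, and genes such as Cfap65 and Dnah5 passed the filter through the Foxj1-high libraries alone. None of the 28 was among the 73 genes past the edgeR threshold.

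**Figure D2:**
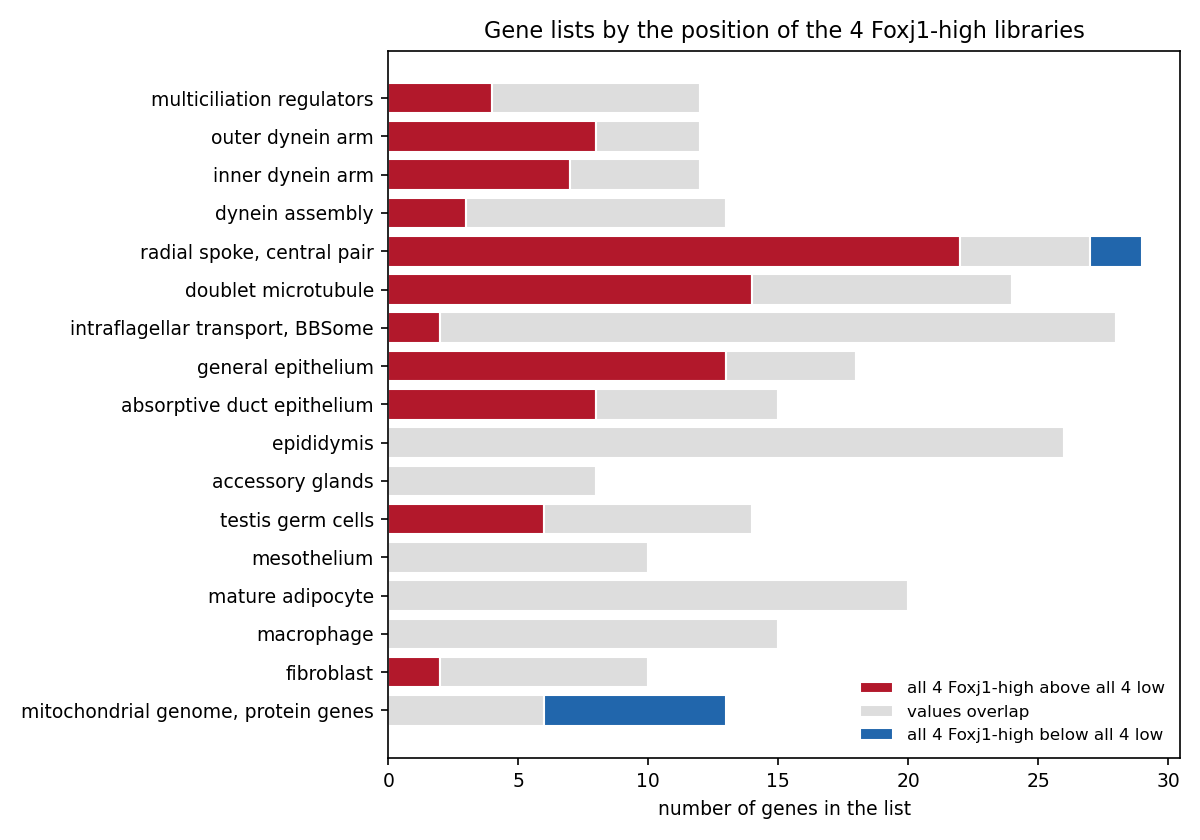
Bars count the genes of each list, in red those higher in all 4 Foxj1-high than in all 4 Foxj1-low libraries, in blue those lower in all, and in grey those whose values overlap. The radial spoke and central pair list has 22 of 29 genes in red and general epithelium 13 of 18, while the mature adipocyte list has 20 of 20 in grey.

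The promoters of the cilia genes were searched for an RFX half-site. RFX factors bind a motif called the X-box, of which GTTGCC is a half-site. In RefSeq promoters (GRCm38.p6, from 250 bases before to 50 after the start), GTTGCC on either strand was found in 38 of the 84 motile cilia genes with an entry (45.2%), in 11 of 25 intraflagellar transport and BBSome genes (44.0%), and in 14.1% of all 27025 genes with a promoter. It was found in 1 of 12 absorptive duct, 0 of 12 general epithelium, 1 of 15 adipocyte and 3 of 23 epididymal genes. The half-site was present in 16 of 48 motile cilia genes that were higher without overlap (33.3%) and in 22 of 36 of the others (61.1%). A match describes the letters and is not evidence of binding. The stretches below are the 150 bases before the start of 4 motile cilia genes and, for contrast, of Crisp1. The 4 have the highest mean CPM in the Foxj1-high libraries among genes higher without overlap with the half-site there. Only motile cilia genes with 1 promoter entry were considered, and those of 1 chromosome were left out. Capitals mark GTTGCC or its reverse complement. The stretches are chr16:44394649-44394798 (plus strand), chr5:124724935-124725084 (plus strand), chr8:110266827-110266976 (plus strand), chr7:139683816-139683965 (minus strand) and chr17:40319208-40319357 (minus strand), all in GRCm38.p6 and written 5′ to 3′ on the gene's strand.
Cfap44: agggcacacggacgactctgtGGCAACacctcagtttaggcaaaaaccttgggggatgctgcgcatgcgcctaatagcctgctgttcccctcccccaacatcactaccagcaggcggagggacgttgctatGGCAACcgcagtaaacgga
Dnah10: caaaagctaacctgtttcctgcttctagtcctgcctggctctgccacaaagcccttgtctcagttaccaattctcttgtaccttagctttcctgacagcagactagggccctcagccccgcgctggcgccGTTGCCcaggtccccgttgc
Hydin: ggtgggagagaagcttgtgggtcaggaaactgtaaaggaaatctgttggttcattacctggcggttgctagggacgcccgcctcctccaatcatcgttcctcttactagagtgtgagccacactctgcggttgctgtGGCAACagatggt
Cfap46: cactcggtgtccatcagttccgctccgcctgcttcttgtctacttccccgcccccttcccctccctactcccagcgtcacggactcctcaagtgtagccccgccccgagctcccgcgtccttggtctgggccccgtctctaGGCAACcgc
Crisp1: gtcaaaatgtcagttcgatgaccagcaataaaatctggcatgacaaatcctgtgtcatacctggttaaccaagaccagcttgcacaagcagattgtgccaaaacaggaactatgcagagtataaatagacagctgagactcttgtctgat
Cfap44 holds 2 half-sites, at -129 and -19 from the start, and Dnah10, Hydin and Cfap46 hold 1 each, at -20, -13 and -9. Crisp1 holds none in this window.

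Most listed epithelial genes outside the cilium were higher in the same 4 libraries. Of 18 general epithelial genes 13 were higher without overlap and 5 overlapped, against 2.77% higher among all genes with a count. Elf3, Epcam, Cdh1 and Krt18 were among the 73 past the threshold. Spint2 overlapped, at 18.8 to 33.1 against 16.7 to 26.6 CPM, and Krt7 was highest in the Foxj1-low library WT 3, at 5.1 CPM. Krt19 separated only narrowly, with 6.92 CPM in treated 3 and 6.86 CPM in treated 4. Epcam, an adhesion molecule of epithelia, was at 12, 4.53, 5.22 and 1.64 CPM in WT 1, WT 4, treated 1 and treated 3 against 0, 0.20, 0.11 and 0.10 CPM. Krt18, a keratin of simple epithelia, was at 15.9, 14.9, 22.4 and 7.29 against 2.90, 2.91, 0.82 and 1.52 CPM. Elf3, an epithelial transcription factor, had no read in any Foxj1-low or untreated library. Of 15 absorptive duct genes 8 were higher without overlap. These include Pax8, a transcription factor of kidney and genital ducts, and Cdh16 and Slc9a3, a duct cadherin and a sodium-proton exchanger. Cdh16 was at 3.37, 2.79, 3.67 and 1.9 CPM with no read in any Foxj1-low library, so it was at least 66.0-fold higher. Pax8 had no read in the 4 Foxj1-low and 4 untreated libraries and was at 14.6, 2.79, 3.77 and 1.43 CPM in the Foxj1-high ones. Slc4a4, Car2 and Esr1, which also had reads in all 12 libraries, overlapped. Lrp2 had reads in all 12 too but was higher without overlap, at 3.82 to 9.69 against 0.76 to 2.65 CPM.

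Of the genes past the threshold whose log2 CPM averaged at least 1, the 10 largest differences, predicted genes left out, were those of Cfap65, Calml3, Cuzd1, Mmp7, Ccdc153, Foxj1, Dcdc2a, Cldn2, Ggt1 and Dnah11. Calml3, a calmodulin-like protein of epithelia, was at 5.65, 26.8, 17.3 and 5.18 CPM with 1 count in the Foxj1-low libraries, 910-fold in summed counts (95% counting interval 163 to 36000). Mmp7, an epithelial matrix metalloproteinase, was at 3.32, 12.3, 7.59 and 1.74 CPM, also with 1 count (413-fold, 73.8 to 16400). Cldn2, a pore-forming tight junction protein, was at 4.78, 5.98, 8.06 and 5.34 against 0, 0.13, 0 and 0.10 CPM, and Ggt1, which cleaves glutathione, at 2.07, 9.93, 2.58 and 2.22 against 0.07, 0.07, 0 and 0.05 CPM. Of the 73 genes, 49 are in none of the 31 lists. The lists are not complete, and Calml3 and Mmp7, named above as epithelial, are among the 49. The 49 are thus no count of genes outside cilia and epithelia. No gene past the threshold was lower in the Foxj1-high libraries (993 genes had an unadjusted p under 0.05 in either direction, and DESeq2 called 346 higher and 20 lower). Together the 73 genes made up 0.0379 to 0.0617% of the counts of a Foxj1-high library and 0.00654 to 0.00817% of a Foxj1-low one. In 71 of the 73 every untreated library, none of which entered the split, was below every Foxj1-high library. The 73 were picked as high in those 4 libraries, and the share over all genes was not counted, so nothing is read from this. Their summed level was 371.5 to 600.0 CPM in Foxj1-high, 69.7 to 84.2 CPM in Foxj1-low and 70.4 to 150.5 CPM in untreated libraries.

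The count of 73 moved with single libraries. With edgeR it was 0 without WT 2 and 0 without treated 4, 5 without WT 3, 7 without treated 2, 17 without treated 1, 26 without WT 4, 27 without treated 3, and 101 without WT 1. Without both WT 2 and WT 3, or in either group alone, no gene passed. The median log2 difference of the 73 was 5.18 in the first case, 5.19 in treated libraries and 5.85 in WT, against 5.65 with all 8. All 73 were higher without overlap between the sides, so leaving out libraries could not turn their sign. Whether the difference between the sides was itself different in WT and treated libraries was tested with an interaction term. No gene of 15312 passed in edgeR (0%), 230 had an unadjusted p under 0.05, and DESeq2 called 4. On simulated counts with the same spread for every gene this test recovered 16.7% of genes changed 4-fold, so it had little power.

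The ratio of other genes to Foxj1 within the 4 Foxj1-high libraries is given as a description, since Foxj1 chose these libraries and the intervals cover counting error alone. Counts per Foxj1 count were 2.21, 2.09, 2.15 and 2.83 for Cfap65 in WT 1, WT 4, treated 1 and treated 3, and 0.688, 0.695, 0.721 and 0.650 for Dnah11. All 4 counting intervals overlapped for both genes, and for Wdr63, at 0.271 to 0.479. For Epcam they were 4.58 in WT 1 (95% interval 3.34 to 6.40) and 0.476, 0.656 and 0.221 in the others, and for Pax8 5.6 (4.11 to 7.79) and 0.293, 0.474 and 0.193. WT 1, with the fewest Foxj1 counts, thus had the most Epcam and Pax8 counts per Foxj1 count. Cdh16 was at 1.29 per Foxj1 count in WT 1 and at 0.257 to 0.461 in the other 3. Cfap44 was also highest in WT 1, at 1.23 against 0.409 to 0.686. Other genes varied otherwise: Dcdc2a was at 2.38 in WT 1, 2.20 in WT 4, 1.21 in treated 1 and 1.10 in treated 3, Cuzd1 at 2.23 in WT 1 and 0.871 in treated 3, and Calml3 at 2.82 in WT 4 and 0.700 in treated 3.

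**Figure D3:**
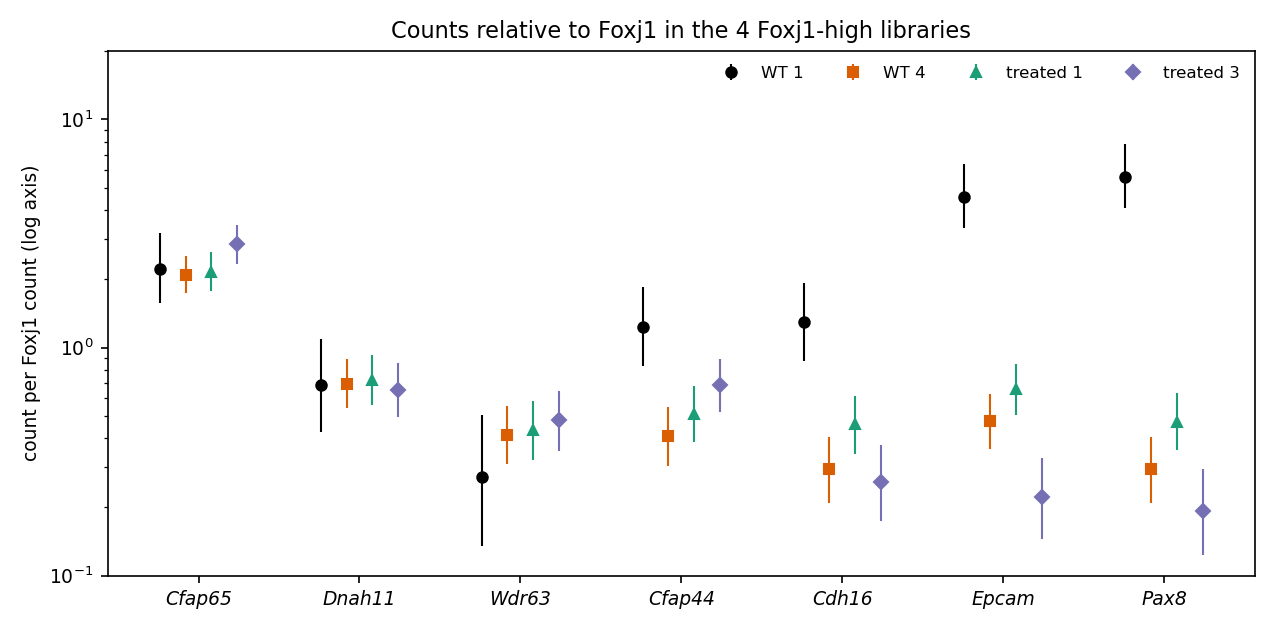
Points give the count of each gene per Foxj1 count in the 4 Foxj1-high libraries on a logarithmic axis, and bars are exact 95% intervals that cover counting error alone. Cfap65 lies between 2.09 and 2.83 in all 4 libraries, while Epcam and Pax8 are at 4.58 and 5.6 in WT 1 and at most 0.656 in the others.

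Markers of organs that could lie beside the fat differed from library to library. WT 1 was the library with epididymal RNA. The 26 epididymal genes summed to 1433.0 CPM there, 11.1 CPM in WT 4 and at most 0.648 CPM in every other library. Besides Crisp1, the epididymal protease inhibitor gene Serpina1f was at 327.3 CPM and the defensin gene Defb30 at 21.7 CPM in WT 1. The gene most abundant in WT 1 among those highest there was Akr1b7, an aldose reductase relative known from the vas deferens, at 3376.6 CPM against at most 0.17 CPM in the other split libraries. Spink8, Defb42 and Ptgs2 were at 116.2, 48.4 and 489.3 CPM in WT 1 and at most 0, 0.29 and 1.32 CPM in the other 7. WT 4 had reads of other epididymal genes, Gpx5 at 2.26 CPM and Lcn8 and Lcn9 at 1.51 CPM each. Treated 1 held seminal vesicle RNA, with Svs2, Svs4 and Svs5 at 19, 23.8 and 25.5 CPM and at most 1 count in any other library. It also held liver-type RNA, with Alb at 1498.4 CPM and Mup20 at 241.0 CPM against at most 148.7 and 3.85 CPM in the other 7. Treated 3 had no epididymal gene above 0.05 CPM and no Svs read, and its Foxj1 level was 7.40 CPM. The Svs, liver and WT 4 genes were picked after their values were seen.

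Male germ cell genes were also counted, since sperm tails use motile cilia proteins. Of 14 germ cell genes 6 were higher without overlap in the Foxj1-high libraries (Prm1, Prm2, Tnp1, Tnp2, Odf1 and Pgk2). The other 8 overlapped, and among all genes with a count 2.77% were higher without overlap. The summed level of the 14 overlapped, at 30.3 to 68.7 against 16.2 to 74.4 CPM, and was 89.6 to 129.9 CPM in untreated libraries. Of the 3 that were tested, 0 passed the edgeR threshold between the sides. Prm2, a protamine that packs sperm DNA, was at 0.92, 2.79, 0.67 and 3.38 CPM in WT 1, WT 4, treated 1 and treated 3 with no read elsewhere. Ldhc was at 3.54 CPM in WT 4 and without a read in WT 1, and Dazl, a germ cell gene of the testis, was without a read in all 8. Leydig and Sertoli cell genes showed no gene without overlap among 9. Genes of other ciliated epithelia were mostly low or overlapped. The airway genes summed to at most 0.620 CPM in the 8 libraries, Otx2 of the choroid plexus had no read, the folate receptor gene Folr1, also on the choroid plexus list, was higher without overlap (0.74 to 5.0 against 0.13 to 0.40 CPM), and the oviduct gene Ovgp1 was at 2.84 to 3.66 against 1.73 to 3.64 CPM. The part of germ cell RNA in the cilia genes was not tested.

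Genes of fat cells overlapped between the sides. All 20 mature adipocyte genes overlapped, with a median log2 difference of -0.26, and their sum was 50020.9 to 68360.4 CPM in the Foxj1-high and 59002.4 to 77222.0 CPM in the Foxj1-low libraries. None of the macrophage, endothelial, mesothelial, adipogenic or lymphocyte genes lay without overlap between the sides. Higher without overlap were 2 of 10 fibroblast genes (Pdgfra and Fn1), 1 of 24 inflammatory genes (Tnf), 1 of 7 skeletal muscle genes (Ckm) and 1 of 6 Schwann cell and nerve genes (Mag). Of 37 sphingolipid genes, Sgpp1 was higher and Sptlc1 lower without overlap. Among all tested genes 2.55% were higher and 1.41% lower without overlap, so nothing is read from 1 gene of a list. The 15 macrophage genes had a median of 0.67, and their sum in WT 1, 3808.3 CPM, was the highest of the 8. 7 of the 13 mitochondrial protein genes were lower in all Foxj1-high libraries, with a median of -0.61. None of the genes in these lists passed the edgeR threshold. Whether the lower mitochondrial share bears on the values above was not tested.

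Treated libraries labelled Bbs2-/- differ from WT in both genotype and drug, which this comparison cannot tell apart. Treated against WT libraries, with the Foxj1 split as a covariate, gave 1 of 15312 genes past the threshold (0.00653%), which was Bbs2 (log2 difference 2.30 ± 0.10, adjusted p = 0.000113 in edgeR, higher in all 4 treated libraries). No motile cilia or epithelial gene passed, and the medians of the 70 tested motile cilia and 14 tested epithelial genes were 0.08 and -0.52, against 0.00 for all genes. At an unadjusted p under 0.05 there were 1265 genes, and DESeq2 called 170. Without the Foxj1 term 2 genes passed in edgeR.

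Calls for cilia genes in the knockout comparison depended on whether the split was in the model. Untreated Bbs2-/- against WT libraries is a comparison in which 2 of 4 WT libraries and no untreated library are Foxj1-high. Without a Foxj1 term, 14 of the 71 tested motile cilia genes were lower and 1 was higher in the untreated libraries at an adjusted p under 0.05, where 19.7% of all genes were lower and 19.6% higher. Foxj1, which set the split, is 1 of the 14, and without it 13 of 70 were lower. Both are near the share of lower genes among all genes, so these counts show no excess in the list. The Foxj1 split was then a covariate in the fit of all 12 libraries. With it 3 of the 71 were lower and 7 higher, where 19.1% of all genes were lower and 20% higher. This term sets the untreated libraries against the level of the Foxj1-low WT libraries, which the rule picked for few Foxj1 counts. For genes that go with Foxj1, the change of calls was thus set in part by the rule, and it is a description, not a test. The 3 lower genes, Dnah3, Dnal1 and Rsph9, were lower in both fits, and 11 (10 besides Foxj1) were lower without the term alone. The median log2 difference of the list went from -0.93 to 0.12. That of the 15312 genes tested between the sides of the split went from -0.03 to -0.02. Without the 4 Foxj1-high libraries, which leaves 2 WT libraries, 2 of 50 tested motile cilia genes were lower and 6 higher, where 18.4% of all genes were lower and 19.5% higher.

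Single genes show the change, and their adjusted p-values with the term carry the same limit. Cfap65, at 5.76 and 19.9 CPM in WT 1 and WT 4, 0 in WT 2 and WT 3, and 0 to 0.05 CPM in untreated libraries, had a log2 difference of -8.40 without the term (adjusted p = 0.0452, edgeR) and 1.83 with it (adjusted p = 0.400). Dnah5 went from -6.07 (adjusted p = 0.0499) to 1.46 (adjusted p = 0.393). Both have at most 1 count over the untreated libraries, so these sizes depend on the model and are no measure of fold. Dnah3, a chain that had reads on both sides of the split, was at 1.99 to 3.81 CPM in the 4 WT libraries and 0.39 to 0.65 CPM in untreated ones, and was lower in both fits (-2.40, adjusted p = 0.00107 without the term; -2.18, adjusted p = 0.00269 with it). Dnah6 was at 1.80 to 2.74 CPM in untreated libraries, 0.47 and 0.99 in WT 2 and WT 3 and 1.58 and 2.79 in WT 1 and WT 4. It rose with the term (2.07, adjusted p = 0.00275) and missed the threshold without it (0.70, adjusted p = 0.454). Myb, Dnah1, Spef2, Cfap43 and Cfap45 likewise were higher with the term alone, and Dnaaf3 in both fits. Myb also marks immune progenitors, and lymphocyte genes summed to 303.3 to 465.0 CPM in untreated against 16.7 to 37.8 CPM in WT libraries; their part in these genes was not tested.

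Fewer general epithelial genes also passed with the term, under the same limit. Of 14 tested general epithelial genes 7 were lower in untreated libraries without the term and 2 with it, Esrp1 and Spint2, both also lower without it (19.7% of all genes were lower without and 19.1% with the term). Epcam did not pass in either fit (-3.91, adjusted p = 0.0720; 0.85, adjusted p = 0.469). Of 11 tested absorptive duct genes, Esr1 and Emx2 were lower without the term and Esr1 with it, which is no larger a share than among all genes. Spint2, a protease inhibitor, was at 7.77 to 14.6 CPM in untreated and 16.7 to 33.1 CPM in WT libraries, and these ranges did not overlap. Primary cilium genes moved little between the fits: 7 of 28 were lower and 2 higher without the term, and 6 lower and 2 higher with it. Over all genes 6242 of 15968 passed with the term (39.1%).

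**Figure D4:**
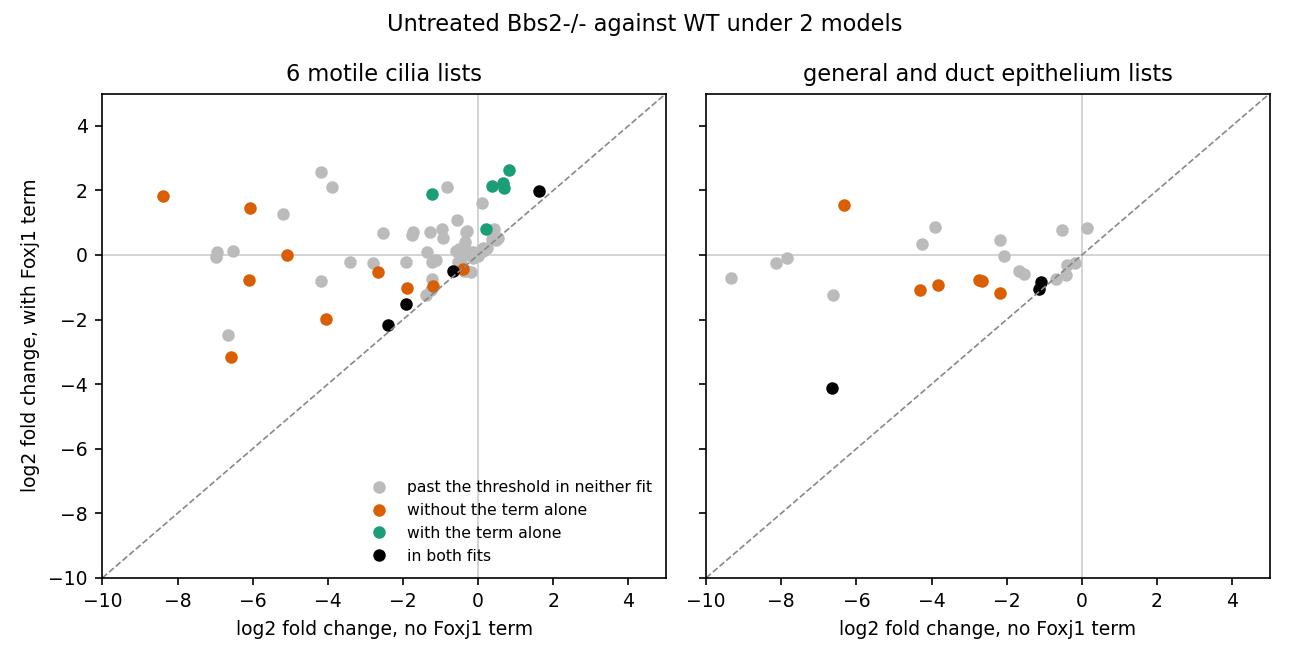
Each point is a tested gene, Foxj1 left out, placed by its log2 difference of untreated Bbs2-/- against WT without (horizontal) and with (vertical) the Foxj1 term, and colours give the fits in which its adjusted p was under 0.05. Dnali1, at -5.08 and 0.01, passed without the term alone, and Dnah3 at -2.40 and -2.18 lies near the diagonal.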

How the data were processed

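The members and gene lists were chosen with earlier results of these data known. Per the labels' protocols, the adipose libraries came from a kit that marks strand. The authors deposited estimated counts per gene without scaling and a table of log2 FPKM values with a common upper quartile. The submitters' processing notes name mm10. The sources used here do not give the aligner, counter or strand setting. Overlapping genes are therefore uncertain. Of 53431 identifiers 52207 were found in GENCODE M21. Expected counts were rounded and tested with edgeR 4.0.16 (R 4.3.3; TMM, filterByExpr by group, robust quasi-likelihood, Benjamini-Hochberg over all tested genes, threshold 0.05) in a model of group and Foxj1 split. Fits of 1 group filtered by side. Libraries held 16317865 to 20224200 counts, and CPM divide by these totals times TMM factors of 0.868 to 1.10. Folds of genes with 0 counts on the low side use a limit of 3 counts over its 4 libraries, and intervals are exact at 95%; both cover counting error only. Named genes are the 3 markers, the 10 largest split differences, up to 4 members of each cilia and epithelium list with the highest mean CPM, and genes highest in WT 1; other genes were picked once their values were known. No gene was lower past the threshold, so the rule's part for the lowest named none. On simulated counts of 15312 genes the split fit recovered 26.9% of 2-fold and 97.0% of 4-fold changes. The simulation gave every gene the same spread, which the measured genes do not have. Pax8 (log2 difference 9.53 ± 1.32) and Krt8 (3.00 ± 0.51) did not pass in the measured data. The recovered shares thus set no limit on the size of differences that did not pass. Replicate pairs did not agree within sampling noise. Alternatives were DESeq2 1.42.0, limma 3.58.1 on log2 FPKM, other scalings, filters, terms and left-out libraries.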

Additional observations from a re-analysis of the deposited data

Results flagged for a closer look

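These summed list levels or genes had 1 library far from the other 3 of its group (by the gap to its nearest neighbour over the group's range, Dixon's test). They number 15 of 106 groups tested. The test flags about 1 in 20 by chance only for normal and independent values. Here Crisp1 is also in the epididymal list and the Cfap65 flag rests on a single count, so the 15 are a description. In WT 1 these were the epididymal genes at 1433.0 CPM against 0 to 11.1, Crisp1 at 1080.7 CPM against 0 to 0.29, the smooth muscle genes at 2691.0 CPM against 1174.8 to 1367.2, the inflammatory genes at 802.2 CPM against 265.0 to 285.2 (Ptgs2 alone was at 489.3 CPM there), and the accessory gland genes at 3.64 CPM against 0.132 to 0.696. In WT 4 the dynein assembly genes were at 61.8 CPM against 45.9 to 48.6 and the epididymal clear cell genes at 4.35 CPM against 2.28 to 2.58. In treated 1 the accessory gland genes were at 79.1 CPM against 0.209 to 0.435, and the choroid plexus genes, nearly all of them Ttr, which liver also makes, at 241.6 CPM against 0.381 to 4.82. In treated 3 the lymphocyte genes were at 139.6 CPM against 22.7 to 33.3. Among the untreated libraries, untreated 4 was high for the multiciliation regulators (42.5 CPM against 27.7 to 28.7), dynein assembly (53.3 against 45.3 to 46.4) and doublet microtubule genes (203.7 against 122.0 to 135.3), and had the single Cfap65 count (0.0471 CPM against 0 in the other 3). Tppp3, at 161.3 CPM against 85.0 to 96.8 in the other untreated libraries, and Rfx2, at 25.9 against 13 to 14.6, were high in untreated 4. Its Foxj1 count was 1. Untreated 1 had the choroid plexus genes at 37.8 CPM against 5.82 to 6.08.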

How the results depend on the processing

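The genes past the threshold between the sides numbered 366 with DESeq2 (47 of them motile cilia genes, against 17), 168 without a filter (34), 7 with a replicate block (1), 4 with limma on log2 FPKM (0), 0 without WT 2 and WT 3 (0), 0 in treated and 0 in WT libraries alone (0 each), 121 with all 12 libraries, and 41 with a minimum log2 fold change of 1. Without WT 1 and treated 1, which hold RNA of other organs, an alternative chosen after seeing the data, it was 27 (9). Leaving out 1 library gave 0 to 101 genes and 0 to 23 motile cilia genes. All 73 kept their sign in each of these fits in which they were tested. As all 73 were higher without overlap between the sides, this is no check of them. The replicate numbers do not pair the samples: same-numbered WT and treated libraries correlated at 0.04, 0.28, -0.16 and -0.16 in their deviations. For treated against WT with the Foxj1 term the count of 1 became 2 with library size alone, 170 with DESeq2, 16 without a filter, 2 with the replicate block, 3 with limma, 2 without the Foxj1 term, and 1 to 2 with a library left out. For the interaction it became 4 with DESeq2 and 0 to 1 with a library left out. In untreated against WT libraries, the signs of Dnah1 (-1.24, adjusted p = 0.396), Dnah5 (-6.07, 0.0499), Dnali1 (-5.08, 0.0499) and Cfap65 (-8.40, 0.0452) in edgeR reversed without the Foxj1 term; the counts of all genes stayed within 1.5 times in every fit run. With library size alone 74.4% of the genes past the threshold were higher in untreated libraries, against 51.3%. The cause of these changes was not tested. Genes under about 1 CPM rest on fewer than 20 counts a library, and at that depth a missing read does not show absence.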
